A study of Mus musculus with 8 samples.

Results

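The postsynaptic density scaffold genes described here were the 9 genes Dlg1, Dlg2, Dlg3, Dlg4, Dlgap1, Shank1, Shank2, Shank3 and Homer1, chosen by symbol from the 14353 genes of the table. Each had 1 entry, and all 9 passed the filter on low values (over 1 CPM, a gene's reads relative to library size, in at least 3 of the 8 libraries). The libraries came from ventral pallidum (VP) of mice homozygous for VGluT2-Cre and heterozygous for the Rpl22 allele, in which Cre adds an HA tag to a ribosomal protein in cells that express, or once expressed, the vesicular glutamate transporter vGluT2. None of the animals had been treated, and both fractions came from the same animals, so no group lacked the Cre or the tag. TRAP libraries hold mRNA pulled down with the tagged ribosomes (labelled glutamatergic neurons). INPUT libraries are labelled as all neurons and glia. The study's methods describe an input set aside before the pulldown, and at another point say that TRAP was sequenced beside an unbound fraction. There were 4 pools of 7 to 11 animals (VP1.6, then VP2.2, VP2.6 and finally VP2.11), with 15 males and 23 females in all. Both fractions of each pool were sequenced once (n = 4 libraries per fraction). Animals were 9 to 12 weeks old in VP1.6 and 10 to 16 weeks old in the other pools. The punches may hold some neighbouring striatum or nucleus accumbens.

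The postsynaptic density is a sheet of protein under the membrane of an excitatory synapse. Its scaffolds form a chain. At the membrane, the membrane-associated guanylate kinases encoded by Dlg1 (SAP97), Dlg2 (PSD-93), Dlg3 (SAP102) and Dlg4 (PSD-95) hold glutamate receptors through PDZ domains. Dlgap proteins (also GKAP or SAPAP) bind the guanylate kinase domain of the Dlg proteins on one side and the PDZ domain of Shank on the other. Shank proteins bind Homer, and Homer binds group I metabotropic glutamate receptors and IP3 receptors. In forebrain principal neurons PSD-95 is known as the dominant Dlg protein of mature synapses, and SAP102 as one that is abundant early in development.

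The sequences that join the links of this chain are shown because the results below separate paralogs that share them. The first set is the stretch of Shank coding sequence that encodes the Homer contact site, found by the Homer-binding motif, with its 5 codons in capitals (GENCODE M21, GRCm38, plus strand, coding exon: Shank1 chr7:44353566-44353610, Shank2 chr7:144411111-144411155, Shank3 chr15:89549188-89549232).
Shank1: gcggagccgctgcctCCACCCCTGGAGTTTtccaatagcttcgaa
Shank2: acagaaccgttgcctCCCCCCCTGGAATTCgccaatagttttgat
Shank3: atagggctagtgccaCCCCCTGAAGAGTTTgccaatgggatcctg
Of these 45 bases, Shank1 and Shank2 shared 34, and Shank3 shared 25 with each of them.

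The second set is the end of the coding sequence of the 4 Dlgap genes, which encodes the carboxyl terminus that the Shank PDZ domain binds, with the last 3 coding codons in capitals and the stop codon after them (Dlgap1 chr17:70818199-70818234, Dlgap2 chr8:14846673-14846708, Dlgap3 chr4:127236333-127236368, Dlgap4 chr2:156762868-156762903).
Dlgap1: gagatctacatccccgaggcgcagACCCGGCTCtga
Dlgap2: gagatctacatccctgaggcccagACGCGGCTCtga
Dlgap3: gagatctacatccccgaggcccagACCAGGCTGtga
Dlgap4: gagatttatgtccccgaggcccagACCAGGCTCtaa
Pairs of these ends shared 29 to 33 of 36 bases. Over whole transcripts the paralogs were separable at the read length used. The share of 75-base windows of a gene's transcripts that also occurred in another gene was at most 0.48% in Dlg1 to Dlg4, 0.12% in Dlgap1, 0% in Dlgap2, Dlgap3, Dlgap4, Shank2 and Homer1, 2.8% in Shank1 and 2.12% in Shank3. Among the other relatives it was 0.64% in Dlg5 and 2.43% in Homer2.

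The labelled cell type was checked against its markers. Slc17a6, which encodes vGluT2, was at 143 ± 13.6 CPM in TRAP and 25.9 ± 10.3 CPM in INPUT (mean ± SD, n = 4), with a log2 fold change of 2.55 (limma's adjusted p = 8.8e-05). Of the 4 glutamatergic markers, Neurod1 (2.84, adjusted p = 0.00012) and Slc17a7 (1.45, adjusted p = 0.000288) were also called higher. Slc17a8 was not called (-0.03, adjusted p = 0.954). Among markers of cells that should not carry the tag, 6 of 8 striatal medium spiny neuron markers, 4 of 5 astrocyte, 4 of 5 oligodendrocyte and 5 of 5 microglia markers were called lower in TRAP by the rule given below, and the oligodendrocyte marker Mag was called higher (log2 fold change 0.61). With the pool as a block the counts lower were the same except for microglia markers (4 of 5), and Mag was not called (adjusted p = 0.0719). Markers of other neurons that should lack the tag did not fall as lists. Of the 3 GABAergic markers, Slc32a1 was lower (-1.26), while Gad1 (0.30) and Gad2 (-0.05) were not called. Of the 3 cholinergic markers, Slc18a3 was lower (-1.75), Chat was higher (0.70, adjusted p = 0.0344, with the block 0.0655) and Slc5a7 was not called (0.81). All 5 pan-neuronal markers were called higher, 4 of them with the block. The medium spiny neuron markers were not absent from TRAP: their summed level was 531 to 904 CPM in TRAP and 1226 to 1839 CPM in INPUT. In bulk libraries such as these, fewer cells of a type and less RNA per cell cannot be told apart.

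The levels in single libraries carry an adjustment. The deposited values hold a shift per gene that both libraries of a pool share, whose origin is not given in the sources used here. In VP2.6 up to 35 genes had the same TRAP minus INPUT difference to 6 decimals, as whole reads would give, but no more than 2 genes had the same value in a single library. The means of the pools also lay close together, with a median SD over genes of 0.125 on the log2 scale, against 0.285 for the halved differences between fractions. The shift cancels in the TRAP minus INPUT difference of a pool and in fits that block on pool. It does not cancel in the levels of single libraries, in their SDs, in whether the fractions overlap, or in the p-values of tests that leave the pools out, which are too small where it narrowed the spread.

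Between the fractions the scaffold genes split within the chain. Dlg3 and Dlgap1 were higher in TRAP, 2.00-fold and 1.58-fold. Dlg4, Shank1 and Homer1 were lower, 2.08-fold, 1.71-fold and 1.44-fold. Dlg1, Dlg2, Shank2 and Shank3 did not pass the test. A gene is called here when its adjusted p is under 0.05 in limma, a linear model fitted to the log2 CPM of all 14249 genes over the filter, with Benjamini-Hochberg adjustment over all of them. By that rule 2 of the 9 were called higher, where 23.2% of all genes were, and 3 were called lower, where 24.8% of all genes were. With the pool as a block in the fit, 2 were higher (all genes 15.4%) and 2 lower (all genes 16.8%), and Homer1 was the gene lost (adjusted p = 0.0698). These shares lie near those of all genes and say nothing particular about the 9 as a list. The median log2 fold change was -0.38 over the 9 and -0.05 over all genes tested. All 4 TRAP libraries were above all 4 INPUT libraries for Dlg3, Dlgap1 and Shank2 (23.3% of all genes) and below them for Dlg4, Shank1 and Homer1 (24.4% of all genes). An exact two-sided permutation test of 4 libraries against 4 gave p = 0.0286 for each of these 6 genes, the smallest value this design allows. That test treats the 8 libraries as exchangeable. With the fractions swapped within pools only, p was 0.125 for each of the 6, which is the smallest value 4 pairs allow, so no single gene can pass at 0.05 in that test.

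**Figure D1:**
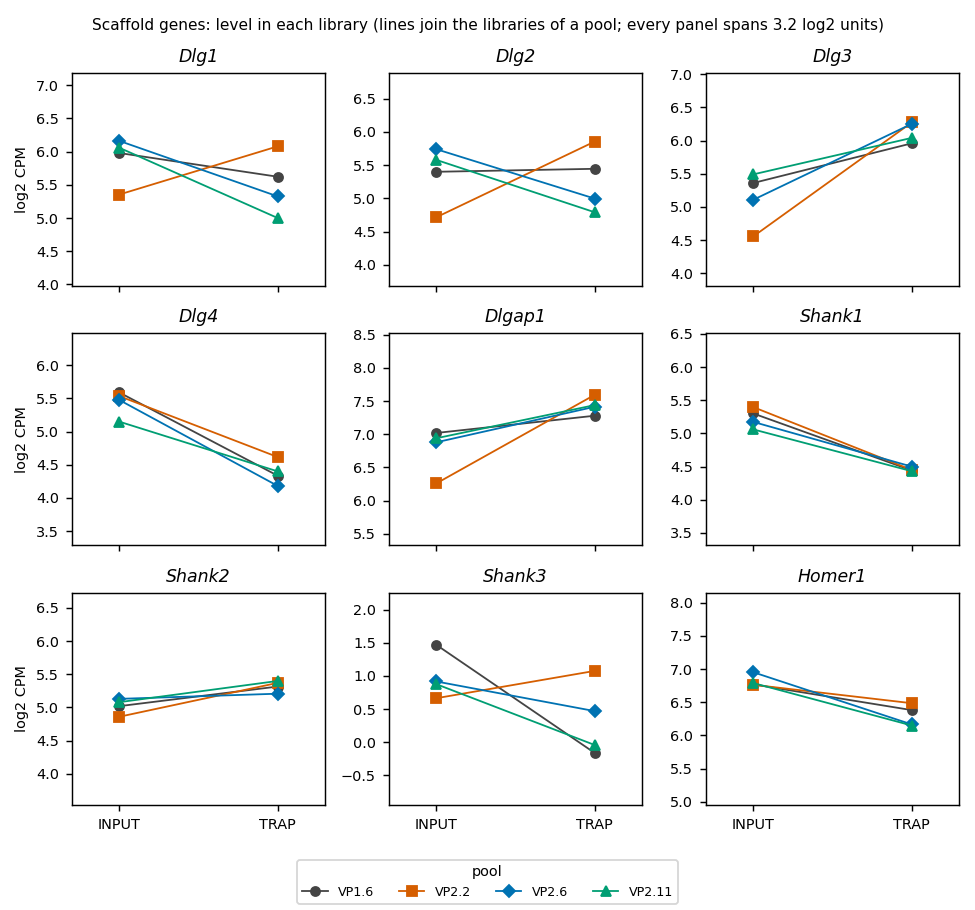
Level of each of the 9 scaffold genes in INPUT (left) and TRAP (right) in log2 CPM, with a marker for each pool, a line joining the 2 libraries of a pool, and the same span on every vertical axis. All 4 lines fall for Dlg4, Shank1 and Homer1, all 4 rise for Dlg3, Dlgap1 and Shank2, and the VP2.2 line runs against the others for Dlg1 and Shank3.

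Among the 4 Dlg genes, Dlg3 was the one called higher in TRAP. Dlg3 (ENSMUSG00000000881, chrX:100767722-100818410) encodes SAP102, which binds NMDA receptors. Its level was 62.2, 77.4, 76.2 and 65.8 CPM in TRAP and 41.1, 23.5, 34.5 and 44.9 CPM in INPUT (in the order of pools given above, which is kept below). Every TRAP library was above every INPUT library, with the lowest INPUT value in VP2.2. The log2 fold change was 1.00 ± 0.20 (SE, limma's adjusted p = 0.00233 and, with the pool as a block, 0.00657), and Dlg3 lay at the 89.7th percentile of the fold changes of all genes.

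Dlg4 (ENSMUSG00000020886, chr11:70016942-70047522), which encodes PSD-95, the anchor of AMPA receptor complexes through stargazin-type subunits, went the other way. Its TRAP libraries held 20.2, 24.5, 18.1 and 21.1 CPM, and its INPUT libraries 48.2, 46.4, 44.5 and 35.5 CPM. The fractions did not overlap, and each pool showed the fall, by -1.26, -0.92, -1.297 and -0.75 on the log2 scale. The log2 fold change was -1.06 ± 0.15 (adjusted p = 0.000455, with the block 0.00347). In limma, Dlg3 and Dlg4 were called in every alternative that was run, in opposite directions.

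Dlg1 (ENSMUSG00000022770, chr16:31663443-31875129) encodes SAP97, which binds AMPA receptor subunits on their way to the membrane. It was at 49.2, 67.7, 40.1 and 32.0 CPM in TRAP and at 63.1, 40.9, 71.7 and 66.7 CPM in INPUT. VP2.2 was the pool where TRAP was higher, and the fractions overlapped through it. The log2 fold change of -0.38 ± 0.25 did not pass the test (adjusted p = 0.22, with the block 0.311), whereas without VP2.2 it was -0.75 and did (adjusted p = 0.00912). With all pools kept, Dlg1 also passed in limma with array weights (-0.55, adjusted p = 0.0104, with the block -0.56 and 0.0414).

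Dlg2 (ENSMUSG00000052572, chr7:90476672-92449247) encodes PSD-93, and its span of the genome is the longest of the 4. Its TRAP values of 43.6, 57.9, 31.9 and 27.7 CPM lay across its INPUT values of 42.2, 26.2, 53.5 and 47.8 CPM. TRAP was higher in VP2.2 by 1.14, lower in VP2.6 by 0.74 and in VP2.11 by 0.79, and level with INPUT in VP1.6 (0.04 on the log2 scale). The mean difference was -0.09 ± 0.27 (adjusted p = 0.81), with a 95% interval, pool as a block, of -0.72 to 0.55. In limma after removal of a trend on exon length, Dlg2 was called lower (-0.61, adjusted p = 0.0344), but not with the block (0.0594). With trends on exon length and on G and C content removed, it was called lower with the block (-0.68, adjusted p = 0.0344).

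The linker gene Dlgap1 (ENSMUSG00000003279, chr17:69969073-70821413) was also higher in TRAP. It was at 155, 193, 171 and 174 CPM in TRAP and at 130, 76.6, 118 and 123 CPM in INPUT, so the fractions did not overlap and VP2.2 again held the lowest INPUT value. The log2 fold change was 0.66 ± 0.17 (adjusted p = 0.0104, with the block 0.0395). Dlgap1 also has the most exon sequence of the 9 genes (17890 bases). Once a trend on exon length was taken out of the values, its call was lost (log2 fold change 0.12, adjusted p = 0.398, with the block 0.667). The origin of that trend was not tested.

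Among the Shank genes, Shank1 was lower in TRAP. Shank1 (ENSMUSG00000038738, chr7:44310253-44360572) encodes a Shank scaffold enriched in dendritic spines. TRAP libraries held 21.7, 21.8, 22.6 and 21.6 CPM, and INPUT libraries 39.4, 42.1, 36.1 and 33.4 CPM. The TRAP values lay within 0.07 of each other on the log2 scale (4.43 to 4.50), the narrowest spread of any member in either fraction, and all were below INPUT. The log2 fold change was -0.78 ± 0.13 (adjusted p = 0.000871, with the block 0.0176). Of its exon bases, 339 (3.22%) overlap the opposite-strand gene 1700008O03Rik. Since the strand setting of the counting is not given in the sources used here, reads of that stretch cannot be told apart.

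Shank2 (ENSMUSG00000037541, chr7:144001928-144424494), whose protein is studied at excitatory synapses of Purkinje and hippocampal neurons, stood slightly higher in TRAP. Its 4 TRAP values were 39.8, 41.4, 37.0 and 42.2 CPM against 32.5, 29.0, 35.01 and 33.8 CPM in INPUT. The groups did not overlap, but the gap was small next to that of Shank1, and the difference of 0.30 ± 0.12 did not pass the test (adjusted p = 0.0661, with the block 0.32). With the pool as a block its 95% interval was -0.17 to 0.78.

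Shank3 (ENSMUSG00000022623, chr15:89499623-89560261), the Shank gene lost in Phelan-McDermid syndrome, was close to the filter in both fractions. It was at 0.89, 2.109, 1.39 and 0.97 CPM in TRAP and at 2.77, 1.59, 1.89 and 1.84 CPM in INPUT. From steps of whole reads in the values, its reads were estimated at 27 in TRAP and 62 in INPUT for VP2.2, and 20 and 55 for VP2.6. The steps fix the ratio of the fractions. The counts are the multiple nearest to the gene's level, which carries the shift shared within a pool. The fractions overlapped through VP2.2, and the difference of -0.65 ± 0.38 (adjusted p = 0.177, with the block 0.422) had an interval, pool as a block, of -1.89 to 0.60. It passed the test in limma with array weights (-0.74, adjusted p = 0.0495) and after removal of the exon length trend (-0.97, adjusted p = 0.0414), both without the block. Its exons are rich in G and C (62.4% of the longest transcript), and 271 of their bases (2.95%) overlap the opposite-strand lincRNA gene Gm15609.

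Homer1 (ENSMUSG00000007617, chr13:93299635-93405129) ends the chain. Its long forms link Shank to metabotropic receptors, and its short, activity-induced form uncouples them; the gene-level values here sum both. TRAP libraries held 83.4, 89.7, 71.8 and 71.0 CPM, and INPUT libraries 109, 109, 124 and 111 CPM. Every TRAP value was below every INPUT value, in each pool by 0.28 to 0.79 on the log2 scale. The log2 fold change was -0.52 ± 0.13 (adjusted p = 0.00634), but not past the threshold with the block (0.0698) or without VP2.6 (-0.44, adjusted p = 0.0687).

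**Figure D2:**
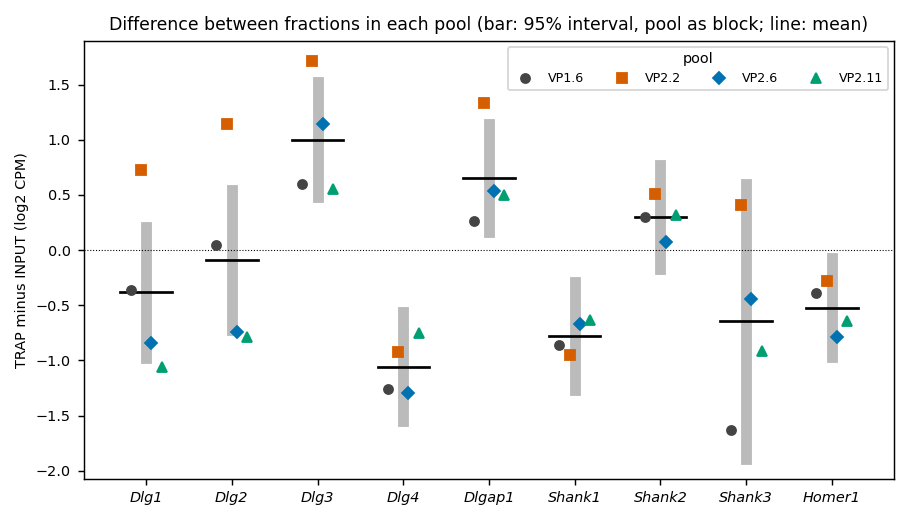
TRAP minus INPUT in log2 CPM for each scaffold gene, 1 marker for each of the 4 pools, with the mean (line) and its 95% interval from limma with the pool as a block (grey bar). Dlg3 and Dlgap1 have intervals above 0, Dlg4, Shank1 and Homer1 below 0 (the intervals are not adjusted for the number of genes), and the VP2.2 marker is the uppermost for 7 of the 9 genes.

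Levels of different genes were compared per kilobase of exon, with all annotated exons of a gene counted. That gave 13251 bases over 22 annotated transcripts for Dlg4 and 5844 over 8 for Dlg3. Which transcripts were expressed was not tested, so the orders, shares and per-kilobase ratios below depend on these lengths. In TRAP the order was Dlg3 (12.0 ± 1.29 CPM per kb), Dlgap1 (9.69 ± 0.87), Homer1 (6.59 ± 0.76), Dlg1 (4.40 ± 1.43), Shank2 (3.72 ± 0.22), Dlg2 (2.47 ± 0.83), Shank1 (2.09 ± 0.04), Dlg4 (1.58 ± 0.20) and Shank3 (0.15 ± 0.06). Neighbours that did not keep their order in all 4 TRAP libraries were Dlg1 and Shank2 (3 of 4) and Dlg2 and Shank1 (2 of 4). In INPUT, Homer1 came first (9.45 ± 0.61), ahead of Dlgap1 (6.24 ± 1.34), Dlg3 (6.16 ± 1.61) and Dlg1 (5.64 ± 1.27), whose mean gaps of 0.03 and 0.12 on the log2 scale were within their spread. Then came Shank1 (3.59 ± 0.36), Dlg4 (3.29 ± 0.42), Shank2 (3.03 ± 0.24), Dlg2 (2.61 ± 0.72) and Shank3 (0.22 ± 0.06), where Dlg1 and Shank1, Dlg4 and Shank2, and Shank2 and Dlg2 kept their order in 3 of 4 libraries. Shank3 was last in both fractions, and it stood at the 1.5th percentile of all genes by TRAP level per kilobase, against the 75.3rd for Dlg3.

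The make-up of each paralog family was also compared between the fractions. Of the summed level per kilobase of Dlg1 to Dlg4, Dlg3 made up 59.2 ± 6.18% in TRAP and 34.5 ± 4.29% in INPUT, while Dlg4 made up 7.79 ± 0.96% and 19.3 ± 5.61%. Dlg1 made up 21.1 ± 3.95% in TRAP and 31.7 ± 2.27% in INPUT, and Dlg2 11.9 ± 2.49% and 14.5 ± 2.01%. Dlg3 was the most abundant Dlg transcript per kilobase in all TRAP libraries (53.1 to 64.9%), whereas in INPUT it shared that place with Dlg1 (29.4 to 34.7% for Dlg1 and 30.7 to 39.4% for Dlg3). In CPM, without division by length, Dlg3 also led in all TRAP libraries. In INPUT its mean CPM was the lowest of these genes (36.0, against 60.6 for Dlg1, 42.4 for Dlg2 and 43.7 for Dlg4).

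In the Shank family the leading gene per kilobase changed. The log2 ratio of Shank1 to Shank2 per kilobase ran from 0.01 to 0.57 over the INPUT libraries. In CPM, without division by length, Shank2 (33.8) was above Shank1 (33.4) in the INPUT library of VP2.11. Shank1 made up 52.5 ± 4.28% of the summed level in INPUT and 35.1 ± 1.78% in TRAP, and Shank2 44.3 ± 4.17% and 62.5 ± 1.96%. Shank3 was a minor part of both, 3.21 ± 0.75% and 2.44 ± 0.97%. The summed level of the 3 genes was 5.96 ± 0.19 CPM per kb in TRAP and 6.83 ± 0.23 CPM per kb in INPUT.

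**Figure D3:**
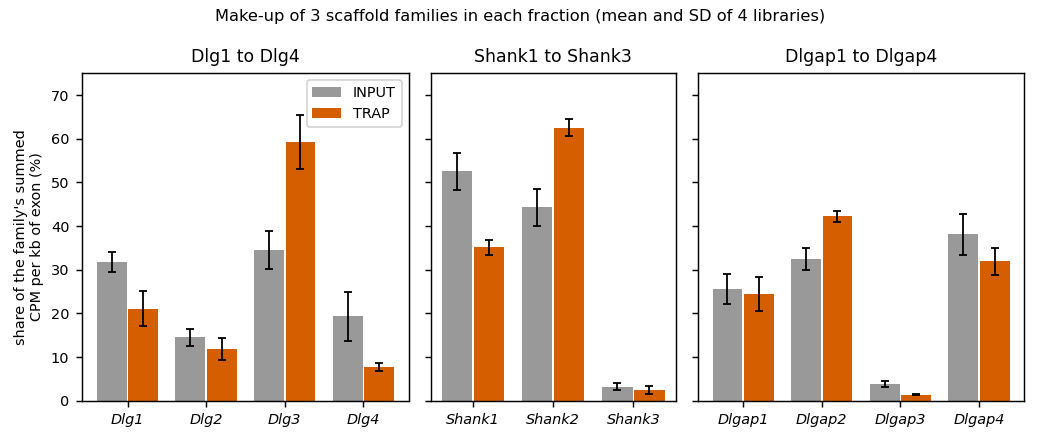
Share of each gene in the summed CPM per kilobase of exon of its family, in INPUT (grey) and TRAP (orange), as mean and SD of 4 libraries. Dlg3 is at 34.5% of the Dlg family in INPUT and 59.2% in TRAP, Shank2 is below Shank1 in INPUT and above it in TRAP, and Dlgap2 is at 32.4 and 42.2% of the Dlgap family.

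The ratio of each pair within a family, taken inside each library, does not depend on how the libraries were scaled. Of 15 such pairs, a comparison chosen after the values were seen, 11 had no overlap between the fractions (exact two-sided permutation p = 0.0286, the smallest possible, and 0.039 after Benjamini-Hochberg adjustment over the 15). Over all pairs of genes tested, 46.4% had none, the 15 pairs share genes, and with the fractions swapped within pools the exact p of the 11 was 0.125, the smallest that 4 pools allow. The ratios are therefore given as a description. The log2 ratio of Dlg3 to Dlg4 differed by 2.06 (1.3 to 2.64 over the pools), from 0.87 in INPUT to 2.93 in TRAP on the per-kilobase scale. The ratio of Shank1 to Shank2 went from 0.24 to -0.83 and was lower in TRAP in every pool. For Dlg1 and Dlg4 the ratio changed by 0.67, with 3 of 4 pools above 0 (exact permutation p = 0.0857, adjusted 0.0989), and for Dlg2 and Dlg4 by 0.97 (p = 0.0571, adjusted 0.0714). Shank1 against Shank3 changed by -0.13 (exact permutation p = 0.714), with a range of -1.36 to 0.77 over the pools.

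Of the 6 family relatives outside the 9 genes, 5 were measured, and Homer3 is not analysed here. Dlgap2 and Dlgap4 were called higher and Dlgap3 lower. Dlgap2 (chr8:14095865-14847680) was at 99.8, 99.6, 86.7 and 131 CPM in TRAP and 49.9, 35.8, 56.3 and 52.0 CPM in INPUT. Its log2 fold change of 1.11 ± 0.18 passed the test (adjusted p = 0.000763, with the block 0.00206). It was the relative that kept its call with the pool as a block. With a log2 fold change of 0.47, Dlgap4 was higher in all 4 pools (adjusted p = 0.0418, with the block 0.126). Dlgap3, which is known for striatal expression and for the grooming of mice that lack it, was at 2.56 ± 0.43 CPM in TRAP and 4.15 ± 0.39 CPM in INPUT (log2 fold change -0.71, adjusted p = 0.0284, with the block 0.204).

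The remaining relatives did not pass the test. Homer2, a paralog of Homer1, was at 13.0, 15.9, 11.2 and 3.73 CPM in TRAP and 13.6, 11.4, 14.6 and 15.9 CPM in INPUT, so that its mean of -0.52 came mostly from VP2.11 (-2.09). Dlg5, a distant Dlg gene with roles in cell polarity, was at 10.7 ± 2.503 and 11.3 ± 1.82 CPM. Within the Dlgap family the log2 ratio of Dlgap2 to Dlgap3 was higher in TRAP by 1.82 (1.56 to 2.17 over the pools), and that of Dlgap3 to Dlgap4 changed by -1.18 (-1.34 to -1.04).

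A list of 29 other excitatory postsynaptic proteins, partners of the scaffolds, had 12 members called higher (all genes 23.2%) and 2 lower (all genes 24.8%), and 9 and 1 with the block (all genes 15.4% and 16.8%). Its median log2 fold change was 0.38, beside -0.05 over all genes, and 22 of the 29 had a mean above 0, as did 6787 of the 14249 genes. With the exon length trend removed and the block, 7 were called higher (all genes 19.1%) and 2 lower (all genes 13.9%). The median was then 0.30, beside 0.07 over all genes. The 3 highest were Grip1 (1.43 ± 0.23), whose protein anchors the AMPA receptor subunit GluA2, Cnksr2 (1.35 ± 0.16), whose protein binds PSD-95 and Ras pathway kinases, and Nos1 (1.25 ± 0.17), whose protein is tethered to PSD-95. Their adjusted p-values in limma were 0.000767, 0.000155 and 0.000382, and each kept its call with the block. Nos1 was at 147 ± 8.41 CPM in TRAP and 63.1 ± 14.2 CPM in INPUT. The 3 lowest were Agap2 (-1.54 ± 0.24, adjusted p = 0.00071), Lin7c (-0.40 ± 0.17, adjusted p = 0.0778) and Abi1 (-0.33 ± 0.11, adjusted p = 0.0326, with the block 0.236). Agap2 encodes the GTPase PIKE, whose long form binds Homer, and it kept its call with the block (adjusted p = 0.00103).

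For comparison with inhibitory synapses, 7 genes of their postsynaptic scaffold were measured, of which 2 were called higher and 2 lower (1 and 1 with the block), counts near the shares of all genes just given. Gphn, which encodes gephyrin, the main scaffold under GABA-A and glycine receptors, was at 206 ± 26.9 CPM in TRAP and 87.9 ± 14.1 CPM in INPUT, and its log2 fold change was 1.23 ± 0.15 (adjusted p = 0.000202, with the block 0.000783). Insyn1 was low in both fractions, at 0.65 ± 0.48 CPM in TRAP and 2.19 ± 0.36 CPM in INPUT (-2.14 ± 0.63, adjusted p = 0.017, with the block 0.0427), and its difference ran from -4.17 in VP2.11 to -0.41 in VP2.6. Insyn2a, listed under its older symbol Fam196a, was lower (-0.63, adjusted p = 0.00846, with the block 0.0512), and Shisa7 was higher (0.47, adjusted p = 0.0231, with the block 0.146). Nlgn2 (0.35), which encodes the adhesion protein neuroligin-2 of inhibitory synapses, and Lhfpl4 (-0.06) did not pass the test (adjusted p = 0.0663 and 0.793).

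**Figure D4:**
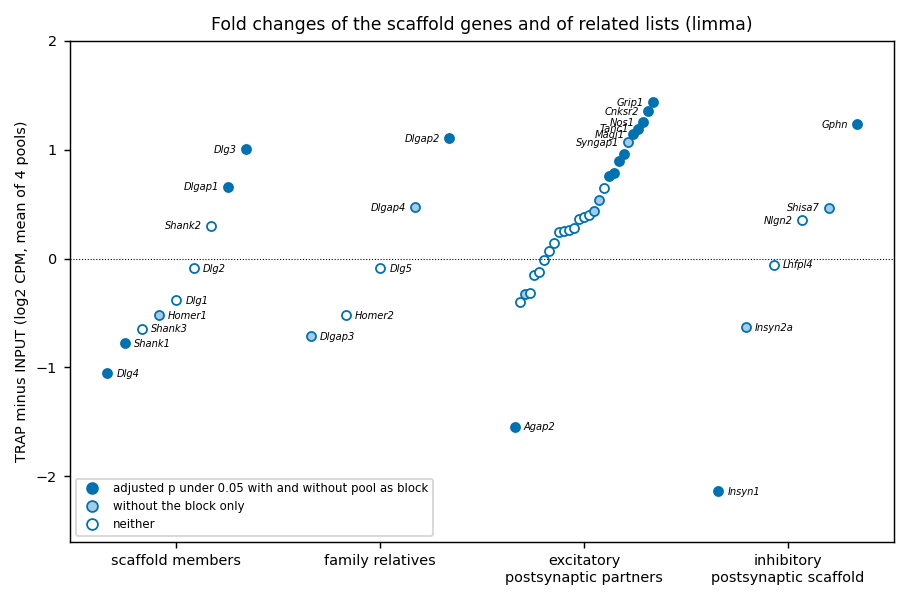
TRAP minus INPUT (mean of 4 pools, log2 CPM) for the named genes and partners of the 4 lists, with dark markers for genes called by limma with and without the pool as a block, pale markers for genes called without it, and open markers for genes called by neither. The scaffold genes run from -1.06 (Dlg4) to 1.00 (Dlg3), and the excitatory partners lie mostly above 0, with Agap2 at -1.54.

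The pool VP2.2 stood apart for several scaffold genes. Its TRAP minus INPUT difference was the highest of the 4 pools for 7 of the 9 genes, as it was for 32.3% of all genes tested. Over the 9 genes the median difference was 0.51 in VP2.2 and -0.36, -0.67 and -0.64 in VP1.6, VP2.6 and VP2.11, whereas over all genes it lay between -0.04 and -0.01 in every pool. VP2.2 also held the highest difference for 5 of the 7 inhibitory scaffold genes (median 0.70 in VP2.2). It did so for 14 of the 29 excitatory partners, whose median was 0.49 in VP2.2 and 0.52 in VP1.6. Among the family relatives it did so for 2 of 5 (median 0.37 in VP2.2 and 0.39 in VP2.11). All 3 GABAergic neuron markers were also highest in VP2.2, as were 5 of 8 medium spiny neuron markers. Gad1 differed by 1.66 in VP2.2 against -0.30 to -0.03 in the other pools. The median difference of the medium spiny neuron markers was below 0 in every pool: -0.79 in VP2.2 and -1.79, -1.89 and -1.105 in VP1.6, VP2.6 and VP2.11. Among these markers Pde10a had the highest value in VP2.2 (1.08 against -1.37 to -0.55 in the other pools). Ppp1r1b had its lowest difference there (-1.70). The part of these cell types in the scaffold values was not tested. Without VP2.2, 6 of the 9 genes were called, 2 higher (all genes 21.9%) and 4 lower (all genes 21.6%), Dlg1 being added.

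Exon length also moved with the fold changes. Taking a spline trend on exon length out of each library shifted the median of all genes by over 0.1, from -0.05 to 0.07, and moved the fold changes of long genes down. In limma with the pool as a block, 1 of the 9 genes was then called higher (all genes 19.1%) and 4 lower (all genes 13.9%). Dlg3 kept 0.92 (adjusted p = 0.00431), Dlg4 was at -1.52 (9.6e-05), Shank1 at -1.16 (0.00117), Homer1 at -0.95 (0.00145) and Dlg1 at -0.77 (0.0152). Shank2 took the opposite sign, -0.09 (adjusted p = 0.765). With all pools kept and no array weights, Dlg3, Dlg4 and Shank1 were called with the block on both scales. Homer1 and Dlg1 were then called on the length-adjusted scale alone, and Dlgap1 on the deposited scale alone. In limma with array weights and the block, Homer1 (-0.58, adjusted p = 0.014) and Dlg1 (-0.56, adjusted p = 0.0414) were also called on the deposited scale.

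**Figure D5:**
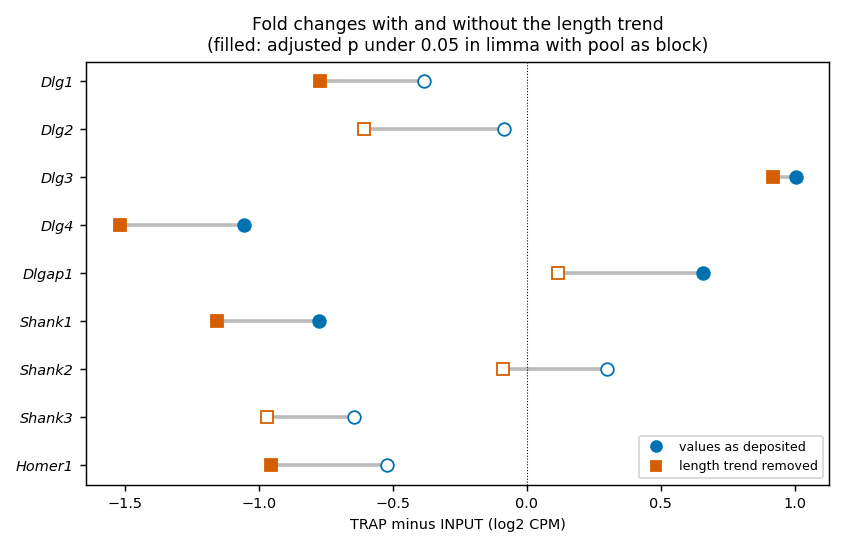
TRAP minus INPUT in log2 CPM for each scaffold gene as deposited (circles) and after a trend on exon length was removed (squares), filled where limma with the pool as a block gave an adjusted p under 0.05. Every gene moves to the left, Dlg3 least (1.00 to 0.92), Dlgap1 loses its call and Dlg1 and Homer1 gain one.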

How the data were processed

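TRAP and INPUT RNA from VP punches was sequenced with single reads of 75 cycles. The authors used STAR 2.5.1a, counted uniquely aligned reads per gene with featureCounts and scaled them by TMM in edgeR. Their own test was limma's voom fit, weighted by sample quality. Each library has 1 column of log2 CPM deposited by the authors, and these 8 columns alone were used, not the authors' fold changes, p-values and transcript count beside them. Both VP2.11 libraries and the INPUT library of VP1.6 are given to 3 significant digits.

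After 45 repeated entries were dropped from 14398, 14353 genes were left, of which 14349 matched GENCODE M21 (GRCm38), the source of positions, exon lengths and sequences. The 14249 genes above 1 CPM in 3 or more libraries were fitted in limma 3.58.1 (R 4.3.3) on fraction alone, with Benjamini-Hochberg adjusted p under 0.05 as the threshold. A second fit had the pool as a block: TRAP and INPUT of a pool share 1 homogenate, and their deviations from the fraction means correlated at -0.745 to -0.495, against 0.046 to 0.441 between pools. The negative sign is the opposite of what a shared homogenate gives, and the deposited values carry a shift per gene shared within pools. On data simulated with this correlation, the fit without the block called more unchanged genes than the fit with it. That outcome follows from the correlation set and is no separate evidence. Single genes and ratios were tested by exact permutation (scipy 1.17.1). Steps of whole reads put effective library sizes at about 13.5 M (TRAP) and 40.7 M (INPUT) reads for VP2.2 and 12.8 M and 25.4 M for VP2.6, from 4728 and 5966 genes. Depth is unknown for the other pools, so no count test was run.

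The 9 genes, the lists and the tests were chosen with earlier results of these data known. By rule the text names the 9 genes, their relatives, the 3 highest and 3 lowest fold changes of the excitatory partners, and every inhibitory scaffold gene except 1, which is counted but not reported here. Cell type markers are named as context only. Alternatives were the block, array weights, removal of length and GC trends (spline, 5 degrees of freedom), other filters, a pseudocount of 1 CPM, median centring, quantile normalization, a minimum absolute log2 fold change of 1, untrended empirical Bayes, and each pool left out. Fits with the block that leave out a pool, family ratios and swaps within pools were added after seeing the data.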

Additional observations from a re-analysis of the deposited data

Results flagged for a closer look

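Among 54 groups of 4 libraries (each named scaffold, relative, inhibitory scaffold gene and the 6 named partners, in each fraction), 1 had 1 library beyond Dixon's critical ratio, where chance gives about 1 in 20. It was Homer1 in INPUT, where VP2.6 was at 6.95 log2 CPM and the other pools at 6.76 to 6.79. Among the fits without the block that left out 1 pool, Homer1 lost its call in the fit without VP2.6 alone. With all pools kept, it also lost its call with the block and under the minimum absolute log2 fold change of 1.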

How the results depend on the processing

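The fold changes of the 9 genes were computed under 152 combinations of gene and alternative, of which 128 kept the direction and the call, 8 lost the call, 11 gained one and 5 turned the direction. The turns were Dlg2 without VP2.6 (0.13) and without VP2.11 (0.15), and Shank2 with the length trend removed (-0.089, and -0.089 with the block) and with length and GC trends removed with the block (-0.10). None of these 5 passed the test, and leaving out each pool in turn put Dlg2 between -0.497 and 0.147. Dlg3 and Dlg4 kept their calls in all 17 alternatives. The replicate block, with the pool pairing the libraries, left 4 of the 9 genes called in place of 5, and 1 of 5 relatives in place of 3, 2 of 7 inhibitory scaffold genes in place of 4, and 10 of 29 excitatory partners in place of 14. Requiring an absolute log2 fold change of 1 or more left 2 of the 9 genes, 1 relative, 7 partners and 2 inhibitory genes. Relatives also went to 1 with array weights and the block and with quantile normalization. With the length trend removed and the block, 9 partners (7 higher, 2 lower) and 2 inhibitory genes (1 higher, 1 lower) were called. All genes were called higher in 19.1% and lower in 13.9% there. With length and GC removed and the block, the counts of both lists were the same. Leaving out each pool in turn gave 4 to 6 of the 9 genes, 1 to 2 relatives (1 without VP1.6 or VP2.2), 11 to 15 partners and 1 to 4 inhibitory genes (1 without VP1.6, 2 without VP2.2). With the block as well, it gave 2 to 5 of the 9 genes, Dlg3 and Dlg4 in each case, and 2 without VP1.6 or without VP2.6. Where no share of all genes is given, these counts say nothing particular about the lists. The cause of the changes was not tested. The rounding of 3 libraries and the 4 pools limit the precision.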
